A study of Mus musculus with 13 samples.

Results

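The genes described here are 10 genes of glucose uptake, glycolysis and lactate handling, of the 20325 genes in the files: the glucose transporters Slc2a1 and Slc2a3, the hexokinases Hk1 and Hk2, the phosphofructokinases Pfkl and Pfkp, the pyruvate dehydrogenase kinase Pdk1, the lactate dehydrogenases Ldha and Ldhb, and the monocarboxylate transporter Slc16a3. They were chosen by name, and each symbol matched 1 row in all 13 libraries. RNA had been sequenced from mouse pre-iPSCs, cells derived from embryonic fibroblasts (MEFs) that stalled on the way to induced pluripotency. Wild-type (WT) and Kdm3b knockout (KO) pre-iPSCs were each sampled at day 0, day 2 and day 10, with 2 libraries per group lettered A and B. Treatment was ascorbic acid (AA) at 50 µg/mL with a pair of kinase inhibitors (2i), CHIR-99021 against GSK3 and PD-0325901 against MEK. All cells were grown in embryonic stem cell medium with 15% serum and leukaemia inhibitory factor. A division of the cultures on day 4 is given for the day 10 libraries only, so it cannot be told apart from the later day. DMSO stands in the titles of the 4 libraries of day 0, although AA+2i stands in their treatment label, and they were taken here as the untreated start. A single library of wild-type V6.5 embryonic stem cells (ESCs) carries the same treatment label with a time of 0 hours, so that whether it was treated cannot be told. No label gives how the knockout was made, how many clones were used, or whether A and B were separate cultures, so p-values measure only the spread between these libraries, which may be technical.

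Glucose enters a cell through facilitative transporters and is trapped by hexokinase, and phosphofructokinase then commits it to glycolysis. The resulting pyruvate is either reduced to lactate by lactate dehydrogenase and exported, or taken up by mitochondria and oxidised by pyruvate dehydrogenase, which pyruvate dehydrogenase kinases switch off. Pluripotent stem cells are known for high glycolytic flux, and reprogramming of fibroblasts is known to be accompanied by a shift towards glycolysis. Kdm3b is an eraser of methyl groups on histone H3 lysine 9.

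Library totals ran from 14891294 to 26430050 RSEM expected counts (estimated reads per gene), and levels are given as CPM (expected counts scaled to a library total of 1000000). The targeted gene was lower in all KO libraries, with Kdm3b at 17.7 to 65.5 CPM in the 6 KO libraries and 146 to 261 CPM in the 6 WT libraries. The 8 naive pluripotency markers summed to between 2814 and 11343 CPM in every pre-iPSC library, a sum led by Pou5f1 except in WT at day 10, where Dppa5a led. The number of markers at 1 CPM or more on average was 6, 8 and 8 in WT at days 0, 2 and 10. In KO it was 3, 5 and 8, so a high sum does not mean that all markers were expressed. Of all 8 markers, 5 were called higher in WT at day 10 than at day 0, among them Nanog (log2 7.13) and Esrrb (9.75). Another 2 were called lower, Pou5f1 (-2.16) and Klf4 (-2.14). In KO against WT at day 10, 5 of 8 were called lower and 0 higher, with Nanog at -3.25 and Esrrb at -4.61. The 10 fibroblast markers summed to 8.50 to 15.2 CPM in WT at day 0 and 78.3 to 105 CPM in WT at day 10, with 9 of 10 at 1 CPM or more on average and Lum at 0. In KO at day 10 these markers summed to 5.15 to 8.06 CPM, and in the ESC library to 264 CPM. The 5 trophectoderm markers summed to 3.78 to 4.79 CPM in WT at day 0, 40.8 to 46.6 CPM in WT at day 10 and 4.18 to 5.62 CPM in KO at day 10. Primitive endoderm markers summed to 0.950 to 1.04 CPM in WT at day 0, 6.21 to 6.39 CPM in WT at day 10 and 1.69 to 1.98 CPM in KO at day 10. Neural markers went the other way, at 432 to 710 CPM, 130 to 137 CPM and 438 to 471 CPM in these 3 groups, led by Sox11 except in WT at day 10, where Nes led, and endothelial markers, led by Tek, stood at 28.9 to 38.6 CPM, 10.7 to 11.3 CPM and 25.8 to 30.6 CPM. These lists therefore move with the day 10 results below, and their part in them was not tested. In bulk RNA, fewer cells of a type and less RNA per cell cannot be told apart.

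The letters A and B separated the libraries of days 0 and 2. Across genes, the A-minus-B differences of any 2 of those 4 groups correlated at 0.91 to 0.95, whereas the day 10 groups gave -0.059 with each other and -0.22 to -0.0068 with the earlier groups. Among the members this split was large. Slc2a1 was lower in A than in B by 0.97 to 1.69 on the log2 scale in the 4 early groups, Slc2a3 by 0.70 to 1.28 and Slc16a3 by 0.77 to 1.38. Ldha was higher in A by 0.73 to 0.92. Pfkp differed by at most 0.20 in either direction. At day 10 Ldha differed by -0.11 in WT and 0.20 in KO. The split went with transcript length over all tested genes, with a median log2 A over B at days 0 and 2 of 0.14 for transcripts under 2000 bases and -0.46 for those of 4000 bases or more, and its origin was not tested. The tests below ignore the letter unless stated. All groups share a single fit, so the SE of a day 10 comparison also includes the A-to-B spread of days 0 and 2. Where the letter was added as a term for days 0 and 2 (the blocked fit), the member calls it changes are named. That fit has no letter term at day 10, so it compares day 10 with the midpoint of A and B of an earlier day. Whether the midpoint is the right reference was not tested, and the blocked FDR does not cover this choice.

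**Figure D1:**
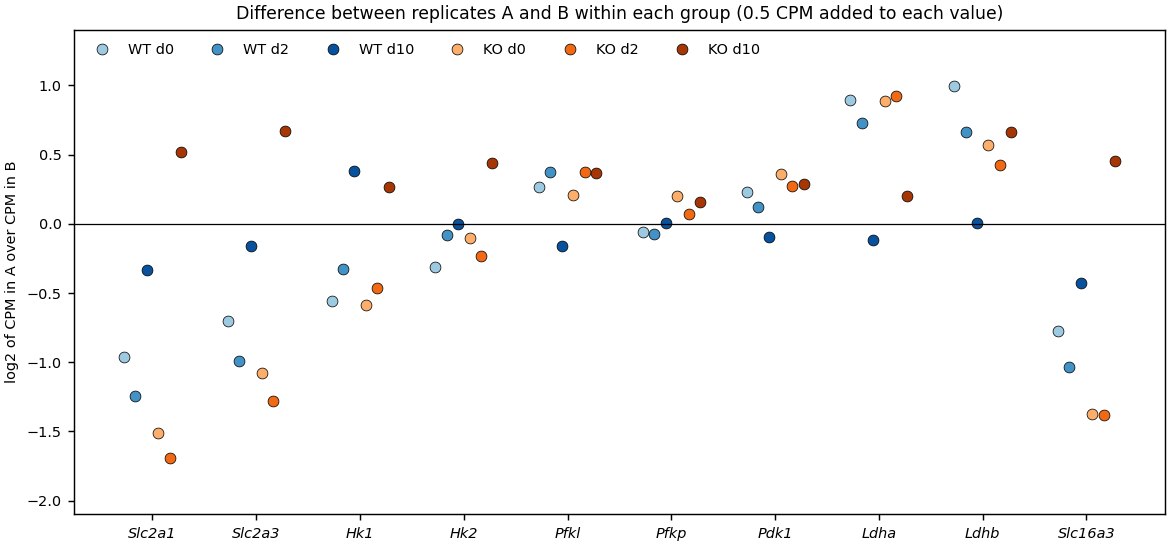
Log2 of the CPM in replicate A over that in replicate B (y axis, 0.5 CPM added to each) for the 10 genes (x axis), 1 point per group of WT or KO cells at day 0 (d0), day 2 (d2) and day 10 (d10). The 4 early groups of Slc2a1 lie between -1.69 and -0.97 and those of Ldha between 0.73 and 0.92, while the day 10 points do not follow them.

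Promoter letters were read from the RefSeq promoter table (build GRCm38.p6) over the 250 bases before each annotated start; the counts themselves were made on mm9. A total of 9 of the 10 members matched the table (Slc2a3 did not). The letters searched were ACGTG on either strand, the core bound by hypoxia-inducible factors, and CACGTG, the E-box bound by MYC family dimers, which contains the former. The 9 members have 12 annotated starts, and ACGTG occurred in 4 of these 12 windows (those of Slc2a1, Hk2 and Slc16a3 and the first of Ldha), and in 16.6% of all 32841 promoters of that length. Both motifs contain a CpG, and these 4 windows held 13, 25, 29 and 25 CpG in that order. The member windows without ACGTG held 1 to 19, and the median over all promoters was 6. The part of base composition in these matches was not tested. The lactate dehydrogenase pair and Hk2 are shown because Ldhb and Hk2 rose in WT while Ldha did not. Capitals mark ACGTG or its reverse complement CACGT, overlapping matches being joined. Ldha lies at chr7:46845554-46845803 on the plus strand (the first of 2 annotated starts), Ldhb at chr6:142507958-142508207 on the minus strand and Hk2 at chr6:82774455-82774704 on the minus strand.
Ldha: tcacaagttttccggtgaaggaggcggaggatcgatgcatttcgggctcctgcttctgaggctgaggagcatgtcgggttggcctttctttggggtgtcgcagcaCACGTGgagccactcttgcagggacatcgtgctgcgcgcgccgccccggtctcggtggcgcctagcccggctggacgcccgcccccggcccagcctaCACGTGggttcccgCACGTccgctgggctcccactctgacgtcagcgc
Ldhb: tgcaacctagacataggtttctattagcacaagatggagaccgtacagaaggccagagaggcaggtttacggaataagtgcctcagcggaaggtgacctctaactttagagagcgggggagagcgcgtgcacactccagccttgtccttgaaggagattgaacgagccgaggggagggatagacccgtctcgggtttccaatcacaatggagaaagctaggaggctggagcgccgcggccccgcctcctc
Hk2: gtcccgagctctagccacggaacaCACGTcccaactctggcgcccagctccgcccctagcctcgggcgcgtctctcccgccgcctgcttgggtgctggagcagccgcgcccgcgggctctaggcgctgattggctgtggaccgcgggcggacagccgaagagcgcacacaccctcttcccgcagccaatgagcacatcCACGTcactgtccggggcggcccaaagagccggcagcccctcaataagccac
The first Ldha window held 3 marked stretches, of which 2 were the full CACGTG, whereas the window of the second Ldha start (chr7:46846832-46847081) held neither motif. Which of the starts these cells used was not tested, and GENCODE transcripts start 35 bases from the first and 0 bases from the second. Of all promoters, 0.256% held 3 or more ACGTG and 6.02% held CACGTG. The Hk2 window held 2 stretches, a count reached by 1.95% of promoters, and the Ldhb window held neither motif. These matches are letters only and were not set against any binding data, and the shares of all promoters were not matched for CpG.

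Compared per length in TPM (the deposited level scaled for transcript length and library), Ldha was the most abundant of the 10 genes in all 7 groups, at 1252 to 2269 TPM on average. Ldhb was the lowest in every pre-iPSC group except WT at day 10, where it was second, at 793 TPM (784.66 and 801.49 in A and B). Slc2a1 was second in the other 5 pre-iPSC groups. The order below these differed: Pdk1 was last in WT at day 10 at 21.5 TPM, and Hk1 was last in the ESC library at 23.0 TPM. The 10 genes made up 0.254 to 0.473% of all counts, and Ldha made up 64.6 and 42.0% of the members' counts in WT at day 0 against 22.5 and 22.9% in WT at day 10.

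**Figure D2:**
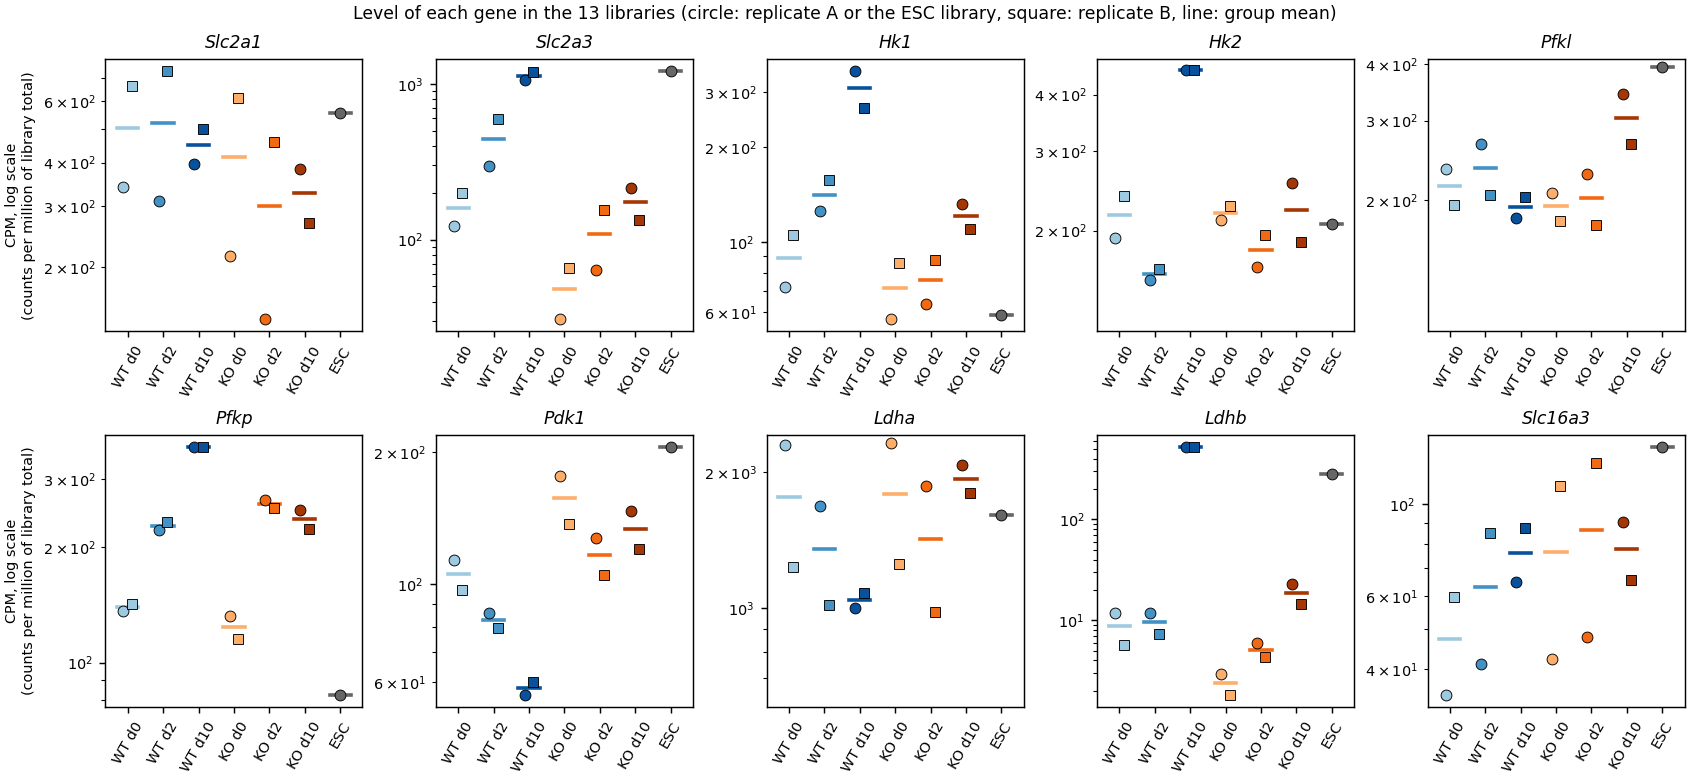
CPM of each gene (log y axis) in the 13 libraries by group (x axis: WT and KO at day 0, 2 and 10, and ESC); circles are replicate A or the ESC library, squares replicate B and lines the group means. Ldhb lies at 520.0 and 518.6 CPM in WT at day 10 and at 23.0 CPM or less in the other pre-iPSC libraries, and Slc2a3 reaches 1067.5 and 1191.9 CPM in WT at day 10.

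In WT cells, Slc2a3, Hk1, Hk2, Pfkp and Ldhb rose between day 0 and day 10, and Pdk1 fell. Ldhb rose most, by 5.79 ± 0.54 (SE) on the log2 scale, and Pfkp and Hk2 rose by 1.32 ± 0.18 and 1.02 ± 0.19. The paralogues Slc2a1, Pfkl and Ldha did not pass the test in this comparison. In all, 6 of 10 members were called at a false discovery rate (FDR, Benjamini-Hochberg) below 0.05 in edgeR's quasi-likelihood test, where 34.1% of all 14324 tested genes were called (21.0% higher, 13.1% lower). The median log2 change of the members was 0.83, against -0.025 over all tested genes. Under the blocked fit 8 of 10 were called, beside 65.7% of all genes. Against the midpoint of A and B at day 0, it added Ldha at -0.75 (edgeR FDR 7.1e-05) and Slc16a3 at 0.67 (edgeR FDR 0.0041). Between days 2 and 10, 4 of 10 were called (29.5% of all genes), namely Hk1, Hk2, Pfkp and Ldhb, all higher. Without WT day 2 A, WT day 2 B or WT day 10 A, Hk1 (0.88 to 1.21) and Pfkp (0.63 to 0.64) lost their calls. Without WT day 10 B, Pfkp (0.64) lost its call as well. Those fits left 1 library in a group and called fewer of all genes. With the letter as a term there were 8 of 10, beside 62.7% of all genes, adding Slc2a3 (1.40, edgeR FDR 1.1e-05) as higher and Pdk1 (-0.54, 0.00059), Ldha (-0.36, 0.018) and Pfkl (-0.30, 0.037) as lower.

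By day 2, none of the 10 members was called in WT (5.30% of all genes were). DESeq2 called 2 members, and 1434 of all genes. An unadjusted edgeR p under 0.05 was found for 4 members, a share that was not counted over all genes. In the blocked fit 6 of 10 were called, where it called 30.1% of all genes. Slc2a3 rose by 1.39 (edgeR FDR 5e-05), Pfkp by 0.67 (0.00021) and Hk1 by 0.65 (0.0013) on the log2 scale. Hk2 fell by 0.46, Ldha fell by 0.40 and Pdk1 fell by 0.38 in that fit, with edgeR FDR from 0.013 to 0.021. Within each letter taken alone, 8 of the 10 members moved the same way in A and in B, while Slc2a1 and Ldhb did not. That share was not counted over all genes.

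Slc2a1 encodes the widely expressed basal glucose transporter. Its levels in A and B were 340.1 and 664.6 CPM in WT at day 0, 309.1 and 732.0 CPM at day 2, and 397.1 and 500.3 CPM at day 10. In KO they were 215.5 and 615.7 CPM, 141.5 and 458.5 CPM, and 384.0 and 267.8 CPM, and the ESC library stood at 556.5 CPM. The spread between letters at days 0 and 2 exceeded any difference between group means of a genotype, and Slc2a1 passed the test in none of the 11 comparisons. With the letter as a term it was called lower in KO at day 2 than in KO at day 0 (log2 -0.52, edgeR FDR 0.047) and than in WT at day 2 (-0.82, edgeR FDR 0.0031).

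Slc2a3 encodes a high-affinity glucose transporter. In WT it stood at 121.6 and 197.8 CPM at day 0, 298.1 and 592.3 CPM at day 2 and 1067.5 and 1191.9 CPM at day 10. KO libraries held 30.9 and 65.8 CPM, 63.4 and 154.9 CPM, and 213.5 and 133.8 CPM. The WT groups did not overlap in any pair of days, and the KO libraries at day 10 lay around the WT level of day 0. The WT increase to day 10 was 2.78 ± 0.52 on the log2 scale (edgeR FDR 0.0035). The KO increase was 1.80 ± 0.51 (edgeR FDR 0.044). Among single omissions (1.39 to 2.41) that call was kept only without either KO library of day 2 or WT day 2 A. It was also lost on library totals alone (edgeR FDR 0.0625) and with only the libraries compared in the fit (0.0505). The difference between KO and WT at day 0 was -1.68 ± 0.50 and was not called (edgeR FDR 0.084), and KO was called lower at day 2 (-1.96 ± 0.51, edgeR FDR 0.041) and at day 10 (-2.66 ± 0.52, edgeR FDR 0.0048). In the blocked fit the day 0 and day 2 differences were -1.74 (edgeR FDR 6.8e-06) and -2.00 (1.2e-06). Among single omissions (-2.71 to -1.45) the unblocked call at day 2 was kept only without KO day 0 A, KO day 0 B or KO day 2 B. It was also lost on library totals alone (edgeR FDR 0.0563) and with only the libraries compared in the fit (0.188). The call at day 10 was lost only without KO day 10 B (-3.02 to -2.33).

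Hk1 encodes the constitutive hexokinase bound to mitochondria. It rose in WT from 71.8 and 105.7 CPM at day 0 over 125.3 and 157.4 CPM at day 2 to 348.6 and 267.3 CPM at day 10. The change from day 0 was 1.75 ± 0.25 on the log2 scale (edgeR FDR 0.00094). The KO levels were 56.9 and 85.6 CPM, 63.8 and 88.0 CPM, and 131.9 and 109.7 CPM. Both KO libraries at day 10 lay above those of day 0, but the change of 0.71 ± 0.25 was not called (edgeR FDR 0.092), whereas the blocked fit called it at 0.73 (edgeR FDR 0.00035). At day 10 Hk1 was lower in KO than in WT by 1.30 ± 0.25 on the log2 scale (edgeR FDR 0.0042), a call that was lost without KO day 10 B. At day 2 the difference of -0.83 was not called (edgeR FDR 0.070), whereas the blocked fit (-0.84, edgeR FDR 0.00013) and DESeq2 called it.

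Hk2 encodes the inducible hexokinase of growing and tumour cells. WT libraries held 193.0 and 239.2 CPM at day 0, 155.7 and 164.8 CPM at day 2 and 453.1 and 454.1 CPM at day 10. KO libraries held 211.4 and 226.7 CPM, 166.3 and 195.4 CPM, and 255.4 and 188.5 CPM. The WT libraries of day 10 stood apart from all others, including the ESC library at 207.4 CPM. Hk2 rose in WT from day 0 to day 10 by 1.02 ± 0.19 (edgeR FDR 0.0033), while the KO change was -0.04 ± 0.19 (edgeR FDR 0.93). KO was lower than WT at day 10 by 0.98 ± 0.19 (edgeR FDR 0.0043), a call lost without KO day 10 B. The difference between the 2 changes, the interaction of genotype with day 10, was -1.06 ± 0.26 (edgeR FDR 0.032). That interaction call was kept only without KO day 2 A, KO day 2 B or KO day 10 A (-1.27 to -0.81 over single omissions). It was also lost on library totals alone (edgeR FDR 0.051), without the filter on low counts (0.068) and with only the libraries compared in the fit (0.064).

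Pfkl and Pfkp encode the liver-type and platelet-type subunits of phosphofructokinase. Pfkp stood at 136.5 and 142.3 CPM in WT at day 0, 221.1 and 232.3 CPM at day 2, and 363.1 and 362.2 CPM at day 10. The KO levels were 132.4 and 115.3 CPM, 264.7 and 252.2 CPM, and 248.7 and 222.8 CPM. In WT it was higher at each later day, while in KO both day 10 libraries lay below those of day 2. Pfkp was the only member called in KO at day 2 (1.04 ± 0.18, edgeR FDR 0.0092), a call lost without KO day 0 B. Pfkp was also called in KO at day 10 against day 0 (0.86 ± 0.18, edgeR FDR 0.013), but not without KO day 10 A or KO day 0 B. With only the libraries compared in the fit, both KO calls of Pfkp were lost (edgeR FDR 0.425 and 0.114). At day 10 it was 0.57 ± 0.18 lower in KO than in WT on the log2 scale (edgeR FDR 0.035), a call lost without any WT library, KO day 10 A or KO day 10 B (-0.65 to -0.47) and without the filter on low counts.

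Pfkl passed the test in none of the 11 comparisons. WT libraries held 234.7 and 195.4 CPM at day 0, 266.5 and 205.4 CPM at day 2 and 182.3 and 203.3 CPM at day 10. KO libraries held 207.8 and 179.6 CPM, 228.0 and 175.9 CPM, and 343.1 and 265.8 CPM, so that KO lay above WT in all libraries of day 10. The difference at day 10 was 0.71 ± 0.27 on the log2 scale and was not called (edgeR FDR 0.081); the blocked fit called it (0.71, edgeR FDR 0.00013), as did the fits without the letter that used only the libraries compared (0.70, edgeR FDR 0.0011) or left out KO day 2 B (0.73, 0.048). The blocked fit also called Pfkl higher in KO at day 10 than at day 0 (0.59, edgeR FDR 0.00098) and than at day 2 (0.55, 0.0028).

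Pdk1 encodes a kinase that restrains entry of pyruvate into mitochondrial oxidation. It stood at 113.8 and 97.1 CPM in WT at day 0, 86.2 and 79.4 CPM at day 2 and 56.1 and 59.9 CPM at day 10. In KO it stood at 176.4 and 137.3 CPM, 127.6 and 105.3 CPM, and 146.7 and 120.3 CPM. KO libraries lay above WT libraries at each day without overlap. The WT decrease to day 10 was called (-0.93 ± 0.24, edgeR FDR 0.015), but not without WT day 0 A, WT day 10 A or WT day 10 B. KO exceeded WT by 1.25 ± 0.24 on the log2 scale at day 10 (edgeR FDR 0.0042), a call kept with any single library left out. In the blocked fit the excess was 0.62 at day 0 (edgeR FDR 0.00041) and 0.56 at day 2 (0.00085), where the unblocked FDR was 0.17 and 0.20.

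Ldha and Ldhb encode the subunits of lactate dehydrogenase; tetramers rich in the Ldha product are known to favour making lactate and those rich in the Ldhb product to favour using it. Ldha stood at 2294.4 and 1234.5 CPM in WT at day 0, 1682.3 and 1017.6 CPM at day 2, and 1000.2 and 1082.0 CPM at day 10. In KO it stood at 2318.1 and 1255.9 CPM, 1861.2 and 980.1 CPM, and 2072.0 and 1799.9 CPM. Both WT libraries of day 10 lay below those of day 0 and below both KO libraries of day 10. Neither difference passed the test (WT change -0.84 ± 0.54, edgeR FDR 0.27; KO against WT 0.94 ± 0.54, edgeR FDR 0.23). With the letter as a term both were called, at -0.75 (edgeR FDR 7.1e-05) and 0.94 (9.7e-06), and the second was also called without the letter when only the libraries compared entered the fit (0.94, edgeR FDR 7.8e-05).

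Ldhb stood at 11.9 and 5.7 CPM in WT at day 0, 11.8 and 7.3 CPM at day 2, and 520.0 and 518.6 CPM at day 10. In KO it stood at 3.0 and 1.8 CPM, 5.9 and 4.3 CPM, and 23.0 and 14.4 CPM. WT at day 10 exceeded every other pre-iPSC library by more than an order of magnitude, and KO at day 10 exceeded both earlier KO groups. The KO change from day 0 was called as well (2.88 ± 0.50, edgeR FDR 0.0055). At day 10 KO was lower than WT by 4.75 ± 0.52 on the log2 scale (edgeR FDR 0.00032). These calls, and the WT change from day 0 (edgeR FDR 0.00012), held with any single library left out, as did the WT change from day 2 of 5.73 ± 0.54. At day 0 the difference between KO and WT was -1.84 ± 0.49 (edgeR FDR 0.054), and the blocked fit called it (-1.81, edgeR FDR 3.6e-05). At day 2 it was -0.82 (edgeR FDR 0.38), and again the blocked fit called it (-0.83, edgeR FDR 0.0068). The interaction with day 10 was -2.91 ± 0.67 (edgeR FDR 0.023), and it was lost without WT day 10 A, WT day 10 B, WT day 0 B, KO day 0 A or KO day 10 B (-3.58 to -2.43 over single omissions).

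Slc16a3 encodes a monocarboxylate transporter that exports lactate. It stood at 34.7 and 59.7 CPM in WT at day 0, 41.2 and 85.0 CPM at day 2 and 64.7 and 87.2 CPM at day 10. The KO levels were 42.4 and 110.4 CPM, 47.9 and 125.4 CPM, and 90.2 and 65.7 CPM, and no comparison was called without the letter. With the letter as a term it was called higher in KO than in WT at day 0 (0.64, edgeR FDR 0.013) and at day 2 (0.47, edgeR FDR 0.049).

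In KO cells over time, 1 member (Pfkp, higher) was called at day 2, where 6.39% of all genes were, and 3 (Slc2a3, Pfkp and Ldhb, all higher) at day 10 against day 0, where 15.1% were. Without KO day 10 A the log2 changes at day 10 were 1.43 for Slc2a3 and 0.79 for Pfkp, and without KO day 0 B they were 2.41 and 0.75. Both calls were lost in these fits, which left 1 library in a group and called fewer of all genes. Between days 2 and 10, 0 members were called by edgeR (3.10% of all genes were), and DESeq2 called 1 (1325 of all genes). An unadjusted edgeR p under 0.05 was found for 2, a share not counted over all genes. The blocked fit called 6, 6 and 5 members in these comparisons, where it called 29.5, 47.8 and 37.2% of all genes. At day 2 it had Slc2a3 (1.13), Pfkp (1.05) and Ldhb (1.07) higher and Slc2a1, Pdk1 and Ldha lower (log2 -0.52, -0.44 and -0.35). At day 10 against day 0 it added Hk1 and Pfkl as higher and Pdk1 as lower (-0.29, edgeR FDR 0.036). At day 10 against day 2 it had Slc2a3 (0.75), Hk1 (0.64), Pfkl (0.55), Ldha (0.47) and Ldhb (1.87), all higher. The median change of the members at day 10 in KO was 0.31 on the log2 scale, against 0.83 in WT; both genotypes have their own day 0 libraries.

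Against WT, KO cells at day 10 had lower Slc2a3, Hk1, Hk2, Pfkp and Ldhb and higher Pdk1. This comparison shares the WT day 10 libraries with the WT change from day 0, so the values are only set side by side: the genotype difference and the WT change were -2.66 and 2.78 for Slc2a3, -4.75 and 5.79 for Ldhb, and 1.25 and -0.93 for Pdk1. The 6 of 10 called compare with 32.3% of all genes (12.4% higher, 19.9% lower). Groups did not overlap for 9 of the 10 members, 3 higher and 6 lower, where 36.9 and 44.7% of all genes showed the same; the exception was Slc16a3. Without KO day 10 B, the log2 differences of Slc2a3, Hk1, Hk2 and Pfkp were -2.33, -1.14, -0.75 and -0.47, and their calls were lost. That fit left 1 library in the group and called fewer of all genes. The blocked fit called 8 (63.8% of all genes), adding Pfkl and Ldha as higher. With only the day 10 libraries in the fit, 8 were called as well. That fit called 8554 of all genes, beside 4628 in the main fit. At day 0, 0 members were called by edgeR (8.29% of all genes), and DESeq2 called 2 (1767 of all genes). An unadjusted edgeR p under 0.05 was found for 3, a share not counted over all genes. At day 2, 1 was called by edgeR (10.5% of all genes). The blocked fit called 4 at day 0 (30.4% of all genes) and 6 at day 2 (36.7%).

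The 2 genotypes' responses themselves were compared by the interaction. With day 10, 2 members were called, Hk2 and Ldhb (12.6% of all genes). Ldhb rose less in KO than in WT, while Hk2 rose in WT and its KO change of -0.04 was not called. The blocked fit called 8 members there, where it called 44.6% of all genes: Slc2a3, Hk1, Hk2, Pfkp and Ldhb were negative and Pfkl, Pdk1 and Ldha positive. With day 2, 0 members were called (0.195% of all genes), and 0 had an unadjusted edgeR p under 0.05. DESeq2 (220 of all genes) and the blocked fit (7.74% of all genes) each called 0.

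**Figure D3:**
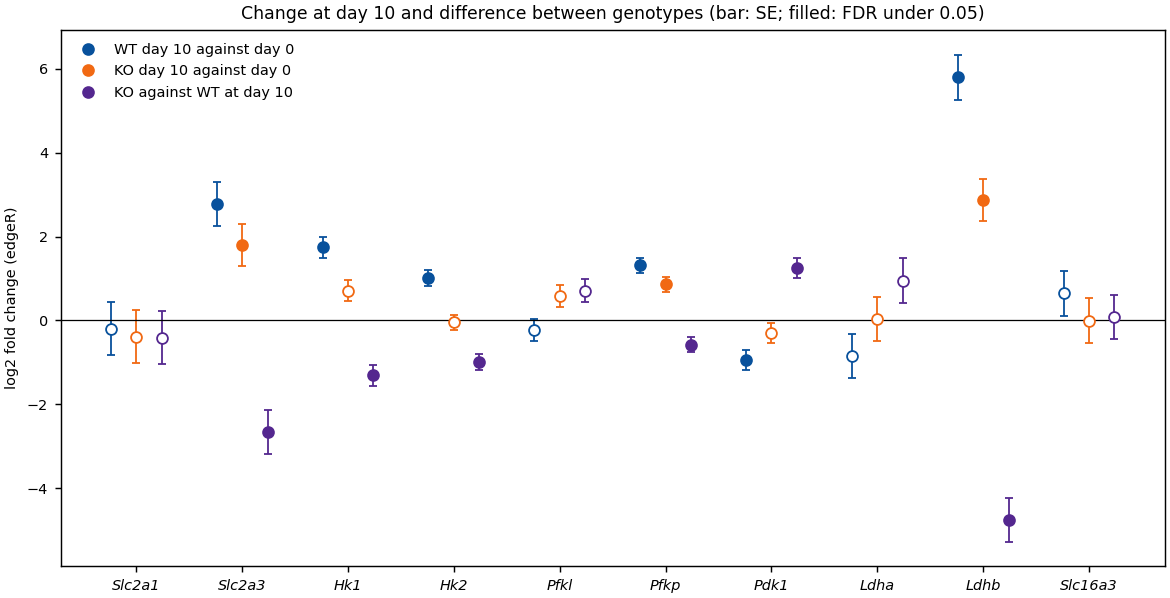
Log2 fold change with its SE (y axis, edgeR without the letter) for the 10 genes (x axis) in WT and KO at day 10 against day 0 and in KO against WT at day 10; filled points have an FDR under 0.05. Ldhb spans 5.79 in WT, 2.88 in KO and -4.75 between genotypes, and open points mark Slc2a1, Pfkl, Ldha and Slc16a3 in all 3 comparisons.

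Shares within the 4 paralogue pairs show how the balance of isoenzymes differed between groups. Ldhb made up 0.488% ± 0.039 (SD, n = 2) of the counts of Ldha plus Ldhb in WT at day 0, 0.704% ± 0.010 at day 2 and 33.3% ± 1.28 at day 10. In KO the shares were 0.137% ± 0.013, 0.378% ± 0.084 and 0.944% ± 0.22. The KO libraries of day 10 held 1.10% and 0.791%, while the WT share was a large fraction of the pair, and the ESC library held 14.8%. Counted per length, the share at day 10 was 38.8% in WT and 1.20% in KO, and that of the ESC library was 18.0%. Slc2a3 made up 24.6% ± 2.41, 46.9% ± 3.09 and 71.7% ± 1.73 of the transporter pair in WT at the 3 days. In KO it made up 11.1% ± 2.04, 28.1% ± 4.03 and 34.5% ± 1.71, and the ESC library held 68.4%. No library of one day overlapped another day of the same genotype, and each KO group lay below the WT group of the same day. These shares were not tested, since 2 libraries against 2 allow no exact p under 0.33.

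Pfkp made up 39.5% ± 3.78 of the phosphofructokinase pair in WT at day 0, 49.2% ± 5.47 at day 2 and 65.3% ± 1.78 at day 10. In KO it made up 39.0% ± 0.13, 56.3% ± 3.67 and 43.8% ± 2.53, so that the KO share was highest at day 2, and the ESC library held 17.3%. Hk2 made up 71.1% ± 2.50, 53.3% ± 3.01 and 59.7% ± 4.55 of the hexokinase pair in WT and 75.7% ± 4.37, 70.6% ± 2.36 and 64.6% ± 1.93 in KO. Its share was thus lower at days 2 and 10 than at day 0 in WT although its level at day 10 was the highest, since Hk1 rose more. In the ESC library Hk2 made up 78.0% of the pair.

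**Figure D4:**
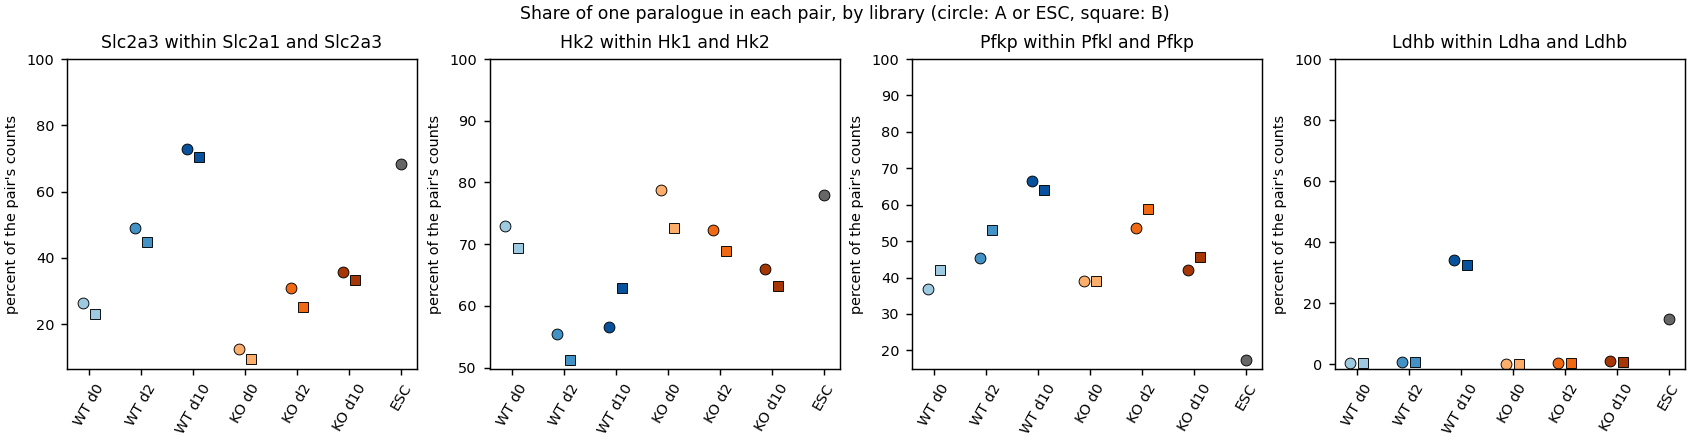
Share of Slc2a3, Hk2, Pfkp and Ldhb in the counts of their pair (y axis, percent) in each library by group (x axis); circles are replicate A or the ESC library and squares replicate B. The Ldhb share is at 33.3% on average in WT at day 10, 14.8% in the ESC library and under 1% on average in the other groups.

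Levels were also set beside the ESC library, which has no replicate, so that these ratios have no test and their intervals cover counting error in that library only. Slc2a3 in WT at day 10 was 0.939 of the ESC level (1202.9 CPM, 95% exact Poisson interval 1188 to 1218) and in KO at day 10 0.144 of it. Ldhb in WT at day 10 was 1.87 times the ESC level (278.4 CPM, interval 271 to 286) and in KO 0.0671 of it. For both genes WT at day 10 therefore lay near or above the ESC library while KO at day 10 lay far below. Hk1 and Pfkp moved further above the ESC level in WT. Hk1 reached 5.27 times the ESC level in WT and 2.07 times in KO, and Pfkp 4.39 and 2.85 times, both genes being above the ESC library already in WT at day 0 (1.52 and 1.69 times). Pdk1 moved away from the ESC level in WT, from 0.514 of it at day 0 to 0.282 at day 10, and stood at 0.650 in KO at day 10. Ldha was 0.648 of the ESC level in WT and 1.20 times it in KO, Pfkl 0.489 and 0.773 of it, Slc16a3 0.555 and 0.569, Slc2a1 0.806 and 0.586, and Hk2 2.19 and 1.07 times it.

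**Figure D5:**
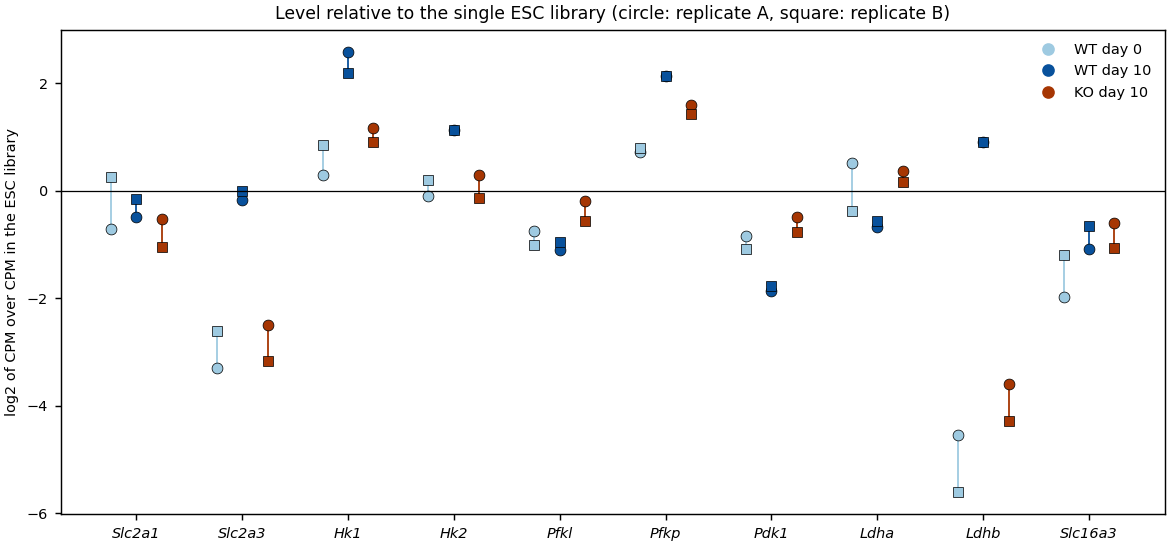
Log2 of the CPM over that of the single ESC library (y axis) for the 10 genes (x axis) in the A (circle) and B (square) libraries of WT at day 0, WT at day 10 and KO at day 10. WT at day 10 is near 0 for Slc2a3, with a mean ratio of 0.939, and above 0 for Hk1, Hk2, Pfkp and Ldhb.

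The members did not vary as one group over the 12 pre-iPSC libraries, which share 6 groups and the letter split. On log2 CPM, Slc2a3 and Hk1 correlated at 0.95, Hk1 and Ldhb at 0.88, and Slc2a3 and Pdk1 at -0.93. The tested genes most like Ldhb were Cox7a1 (r = 0.99) and Basp1 (0.99), those most like Slc2a3 were Daxx and Arid3a (both 0.98), and those most like Hk1 were Alpl (0.99) and Tjp3 (0.98). These are descriptions over 12 libraries.

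Other genes of the pathway were read in WT between day 0 and day 10 against the 21.0% of all genes called higher and 13.1% called lower. Of 15 tested among 20 other glycolytic enzymes, 3 were called higher and 1 lower. The aldolase Aldoa rose by 1.44 and the isomerase Gpi1 by 0.68 on the log2 scale, and the neuronal enolase Eno2 fell by 3.30, from 66.4 and 148 CPM to 12.7 and 9.58 CPM. Of 13 genes of pyruvate entry into mitochondria, 2 were called higher and 1 lower. Pdk4, another pyruvate dehydrogenase kinase, had 1 expected count over both WT day 0 libraries and 12.6 and 11.4 CPM at day 10, while KO at day 10 had 0.251 and 0.121 CPM. The phosphatase subunit Pdp2, which acts against these kinases, rose by 1.74, and Pdhx, a component of the pyruvate dehydrogenase complex, fell by 0.75. Of 11 tested pentose phosphate genes 3 were called higher, among them the transketolase Tkt (1.09) and the transaldolase Taldo1 (0.98).

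Counts for control and transport genes of the same comparison stand against the same shares of all genes (21.0% higher, 13.1% lower). Of 8 tested genes of fructose bisphosphate control and gluconeogenesis, 2 were called higher and 1 lower, with Pfkfb3, a maker of the phosphofructokinase activator, at 1.50. Of 7 tested other sugar transporters 2 were called higher, with the sodium-coupled Slc5a1 at 4.12. Of 6 tested other lactate dehydrogenase and monocarboxylate transport genes 2 were called higher, with Ldhd at 0.95. Of 16 hypoxia response genes outside glycolysis 2 were called higher and 1 lower: Car12 (1.91) and Vegfa (1.63) rose and Ankrd37 (-1.93) fell. Of 16 regulators 5 were called higher and 2 lower, led by the MYC family gene Mycl1 (6.35), Lin28a, an RNA-binding regulator (5.45), Arrdc4 (1.66) and Epas1, a hypoxia-inducible factor subunit (-1.55). The medians of these 8 lists ran from -0.11 for the sugar transporters to 0.50 for fructose bisphosphate control, against -0.025 over all genes.

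In KO against WT at day 10, where 12.4% of all genes were called higher and 19.9% lower, 1 of 15 other glycolytic enzymes was called, Aldoc, which was higher by 1.21 on the log2 scale. Other sugar transporters had 4 of 7 lower and 0 higher, with Slc2a12 at -3.00, Slc2a4 at -1.89 and Slc5a1 at -1.49. Pentose phosphate genes had 3 of 11 lower and 1 higher: Tkt (-1.20) and Taldo1 (-0.91) were lower and G6pdx, the first enzyme of that pathway, was higher (1.31). Pyruvate entry had 2 of 13 lower, Pdk4 and Pdp2 (-1.44), and 0 higher. Fructose bisphosphate control had 3 of 8 lower, with Pfkfb1 at -1.59 and Tigar (9630033F20Rik in the files) at -0.86, and 1 higher. Hypoxia response genes had 1 of 16 higher, Egln1 (0.69), and the other lactate genes 1 of 6 higher, Slc16a7 (0.97), and 1 lower. Regulators had 6 of 16 lower and 1 higher, with Mycn at -1.91 and Mycl1 at -4.07. No enzyme of the glycolytic list outside the members was called lower in KO at day 10.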

How the data were processed

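Deposited RSEM expected counts and TPM per gene were used; per the submitters' processing notes, the authors aligned reads with Bowtie2 to mm9 and estimated counts with RSEM (versions not given in the sources used here). TPM values were deposited by the authors and served only to compare levels between genes. Samples were grouped by title, genotype and time point. Expected counts were rounded and fitted in R 4.3.3 with edgeR 4.0.16 (quasi-likelihood, TMM, filterByExpr, 14324 genes, 6 groups in a single fit, 6 residual degrees of freedom, common biological coefficient of variation 0.266), FDR adjusted over all tested genes. The ESC library entered no test. Letters pair the libraries at days 0 and 2 by their deviations, not at day 10. DESeq2 1.42.0, other scalings, filters and omissions were alternatives. The fit was tested on simulated counts without a letter split, so that test does not cover the split between A and B seen here. CPM use library totals; correlations used log2 CPM with a prior count of 2. All 10 members and, per other list and comparison, up to 4 genes of lowest FDR whose mean reached 1 CPM could be named. Members, lists and tests were chosen with earlier results of these data known. A single gene of the regulator list was left out of that list's counts and is not reported here.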

Additional observations from a re-analysis of the deposited data

Results flagged for a closer look

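Genes whose change from day 0 differed between KO and WT, by the edgeR interaction test at an FDR under 0.05, are given as log2 values (KO change minus WT change). Among the members these were Hk2 (-1.06) and Ldhb (-2.91), both with day 10. In the other lists, the interaction with day 10 was negative for Pfkfb1 (-1.45), Vegfa (-2.80), Slc5a1 (-2.49), Tkt (-1.62), Pdp2 (-1.94), Mycl1 (-5.71) and Mycn (-1.31). It was positive for Fbp2 (3.55), Slc16a7 (1.93), Ldhd (1.39), Pgd (1.10) and Epas1 (1.22). For Fbp2, KO at day 0 held 3 expected counts over both libraries, so its value depends on the prior count. With day 2, Mycn had an interaction of 1.45. For Tkt, WT rose from 234 and 233 CPM at day 0 to 513 and 524 CPM at day 10, while KO went from 278 and 330 CPM to 226 and 211 CPM. For Vegfa, WT rose from 22.4 and 47.2 CPM to 104 and 117 CPM, while KO had 60.9 and 143 CPM at day 0 and 49.9 and 42.7 CPM at day 10.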

How the results depend on the processing

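Of 23 member calls, 10 held under every single omission of a library and every other setting run, and 17 under every setting other than an omission. No called change reversed its direction, but changes without a call could differ in sign between fits. For example, Slc2a1 in WT at day 2 against day 0 had a log2 change of 0.016 in the main fit and -0.047 in the blocked fit. Counts of members called that moved by over 1.5 times are given by setting, with the number of all genes called in brackets. In the main fit, 759 of all genes were called for WT day 2, 4227 for WT day 10 against day 2 and 915 for KO day 2. It called 2165 for KO day 10 against day 0, 444 for KO day 10 against day 2, and 1187 and 1498 for genotype at days 0 and 2. For the day 10 interaction it called 1798. On library totals alone the member counts were 1 (642) for WT day 2 against day 0 and 1 (1059) for genotype at day 0. They were 0 (1363) for genotype at day 2 and 1 (1595) for the day 10 interaction. Without the filter on low counts they were 1 (1074) for genotype at day 0 and 1 (1597) for the day 10 interaction. With the replicate block in all groups they were 1 (1433) for WT day 2, 2 (1478) for KO day 2 and 1 (1152) for KO day 10 against day 2. For genotype they were 3 (1792) at day 0 and 3 (2293) at day 2. With the replicate block at days 0 and 2 only they were 6 (4318) for WT day 2 and 8 (8984) for WT day 10 against day 2. In KO they were 6 (4225) for day 2, 6 (6840) for day 10 against day 0 and 5 (5328) for day 10 against day 2. For genotype they were 4 (4360) at day 0 and 6 (5252) at day 2, and 8 (6388) for the day 10 interaction. With only the libraries compared in the fit they were 0 (0) for KO day 2 and 1 (1042) for KO day 10 against day 0. They were 0 (79) for genotype at day 2 and 1 (1723) for the day 10 interaction, with fewer libraries behind the spread. The DESeq2 Wald test gave 2 (1434) for WT day 2, 1 (1325) for KO day 10 against day 2, 2 (1767) for genotype at day 0 and 2 (2156) at day 2. Its median over all genes for genotype at day 10 was -0.12 (log2). The cause was not tested for the other settings. Leaving out each library in turn gave 5 to 6 calls for WT day 10 against day 0, 2 to 4 against day 2, 0 to 1 for KO day 2, 1 to 3 for KO day 10 against day 0, 0 to 1 for genotype at days 0 and 2, 2 to 7 at day 10, and 0 to 2 for the day 10 interaction. A group left with 1 library is assumed to vary like the others, and the number of all genes called moved in these fits too. TMM scaling kept 13 of 20 ratios to the ESC library within the replicate spread. With 2 libraries per group, a member that was not called may still differ.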
